A study of Arabidopsis lyrata with 3 samples.

Results

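The windows described here are the SEPALLATA3 (SEP3) chromatin immunoprecipitation windows that lie around the centromeres of the 5 chromosomes of Arabidopsis thaliana. They were chosen by position alone, within interval bounds set with earlier results of these data known. A window of the deposited A. thaliana list was taken if its summit, the position the authors give as its peak, fell from 12.5 to 17.5 Mb on chromosome 1, from 1.5 to 6.0 Mb on chromosome 2, from 11.0 to 16.5 Mb on chromosome 3, from 2.5 to 6.0 Mb on chromosome 4 or from 9.5 to 14.5 Mb on chromosome 5. Of 14707 windows in the list, 825 met this rule, and the other 13882 lay on the rest of the same chromosomes. Positions are on TAIR10, the build in the name of the file. The intervals were given as round numbers of Mb, and no annotation of centromeres, genes or repeats was used here, so "pericentromeric" stands for these intervals.

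The study mapped SEP3 in wildtype inflorescences of Arabidopsis lyrata, up to floral stage 10/11, with a peptide antibody to A. thaliana SEP3 and with input DNA as the control. For comparison its authors re-analysed earlier SEP3 chromatin immunoprecipitation sequencing (ChIP-seq) samples of A. thaliana and deposited the resulting windows as 1 list, the only list used here. The design text points to 2 such samples but does not say how they were combined, and the sources used here do not give the genotype, tissue, stage, control or read depth behind the list. Each window has a score set by the authors, whose formula is likewise not stated, so scores serve to rank and describe windows within this list.

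SEP3 is a MADS-domain transcription factor that assembles with other floral MADS-domain proteins into the complexes that specify petals, stamens and carpels, and these complexes bind DNA at CArG boxes. In A. thaliana the DNA on either side of each centromere is heterochromatin, rich in transposons and other repeats, poor in genes and densely methylated, while most genes lie on the chromosome arms. Long arrays of satellite repeats form the centromeres themselves, and reference builds such as TAIR10 hold only a part of them.

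SEP3 windows were sparse in the pericentromeric intervals of every chromosome, and strong windows were sparser still. The intervals made up 19.7% of the length of the chromosomes, taken up to the end of the last listed window, and held 5.61% of all windows. They held 35.1 windows per Mb (95% Poisson interval 32.8 to 37.6), against 145 per Mb (143 to 148) on the rest, a 4.14-fold lower density (exact interval of the ratio 3.85 to 4.44). Summed window widths covered 0.691% of the intervals and 3.83% of the rest. The list gives 1 set of windows with no values per sample, so no test across samples was possible, and all intervals given here cover counting error over windows only.

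The lower density held on each chromosome separately. Chromosome 1 held 162 windows in its interval, or 32.4 per Mb, against 146 per Mb on its rest. Chromosome 2 held 137, or 30.4 per Mb, against 139. Chromosome 3 held 216, or 39.3 per Mb, against 152. These 3 chromosomes thus had intervals 3.87 to 4.56 times less dense than their rests. Chromosome 4 held 120 windows, or 34.3 per Mb, against 146, and chromosome 5 held 190, or 38.0 per Mb, against 143, a ratio of 4.26 and 3.76. The 5 intervals differed little from each other beside their distance from the arms, and the highest of their densities was far below the lowest density of any rest.

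**Figure D1:**
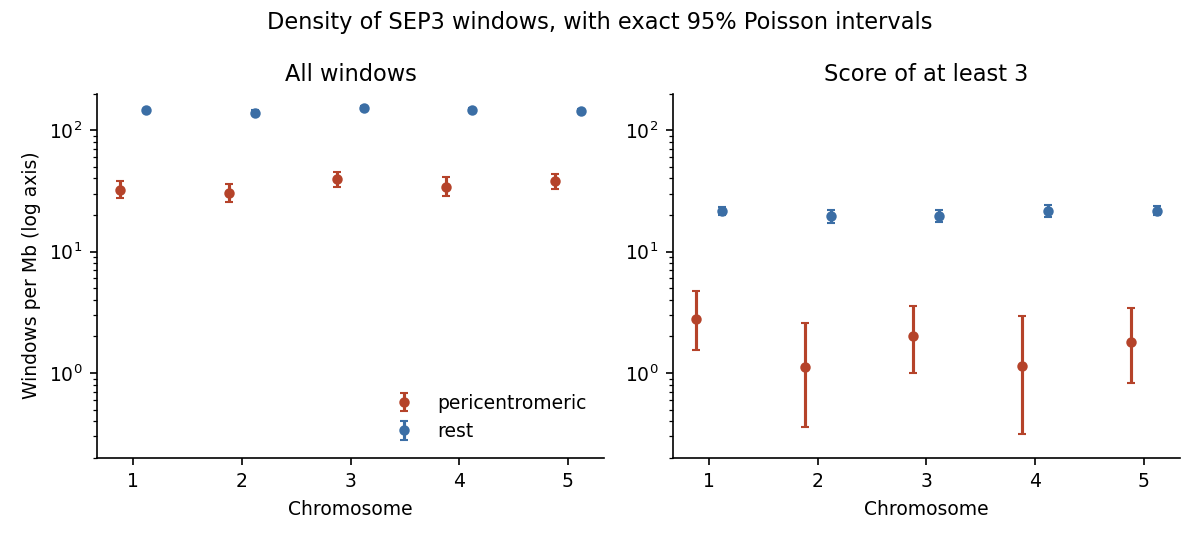
Windows per Mb on a log axis for each chromosome, for all windows (left) and for windows with a score of at least 3 (right); points are the values for the pericentromeric interval (red) and the rest of the chromosome (blue), and bars are exact 95% Poisson intervals over windows. All 5 red points lie below all 5 blue points in both panels, by 3.76 to 4.56 times on the left and by 7.70 to 18.9 times on the right.

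Windows with a score of at least 3, which made up 13.9% of the whole list (2043 windows), numbered 43 in the intervals. That was 5.21% of the pericentromeric windows (95% Wilson interval 3.89 to 6.95%), against 14.4% (13.8 to 15.0%) of the 13882 windows on the rest. Per Mb, the intervals held 1.83 such windows (1.32 to 2.46) and the rest held 20.9 (20.01 to 21.9), a ratio of 11.4 (8.45 to 15.8). The intervals thus held 2.10% of these windows on 19.7% of the length. The gap in density grew with the score limit up to a score of 3. It was 8.53 times (7.01 to 10.5) for scores of at least 2, a limit that 25.0% of the list passed, and 12.5 times (7.84 to 21.1) for scores of at least 5, passed by 6.33%. The intervals for the limits of 3 and 5 overlap widely. With the limit at 10, 212 windows (1.44% of the list) passed, and 1 of them was pericentromeric.

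The share of strong windows was lower in the interval than on the rest of each chromosome. It was highest in the interval of chromosome 1, where 14 of 162 windows (8.64%, 5.22 to 13.98%) had a score of at least 3, against 14.8% on its rest. In the interval of chromosome 3 it was 11 of 216 (5.09%) and on chromosome 5 it was 9 of 190 (4.74%), against 12.9 and 15.2% on their rests. The lowest shares were 5 of 137 on chromosome 2 (3.65%, 1.57 to 8.26%) and 4 of 120 on chromosome 4 (3.33%, 1.30 to 8.26%), against 14.02 and 14.8%. The Wilson intervals of the 5 pericentromeric shares overlap each other, so their order was not resolved. On chromosome 1 the pericentromeric interval also overlaps that of the rest, which runs from 13.7 to 16.0%.

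A larger share of the pericentromeric windows than of the others sat at the bottom of the score range, where both groups had their lower quartile. The lowest common score, 1.05, was that of 320 of the 825 windows (38.8%, Wilson interval 35.5 to 42.2%), against 28.4% (27.6 to 29.1%) on the rest. Their median score was 1.24 (quartiles 1.05 and 1.61), against 1.42 (1.05 and 2.18), and the medians were 1.24 in each of the 5 intervals and 1.42 on each of the 5 rests. The scores fall on regular steps of 0.188, so these medians are 1 step apart. Among the windows that did reach a score of 3, the median was 4.62 in the intervals (quartiles 3.68 and 5.85, n = 43) and also 4.62 on the rest (3.68 and 6.69, n = 2000). With 43 windows the difference of these medians, 0, has a 95% interval from -0.42 to 0.76. Among windows with a score of at least 2, the median was lower in the intervals, at 2.74 against 3.31. The highest score was 11.21 in the intervals and 54.87 on the rest.

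With the 5 chromosomes pooled, windows thinned out gradually from the bounds of the intervals inwards. In the 0.5 Mb just inside the bounds, the 5 chromosomes together held 51.4 windows per Mb (45.3 to 58.1), and in the next 0.5 Mb they held 39.8 (34.5 to 45.7). From 1.0 to 1.5 Mb inside, the density was 26.6 (22.3 to 31.5), and from 1.5 to 2.0 Mb it was 28.7 (23.9 to 34.1). Density thus fell over the outer 1 Mb, and the layers farther in, down to 2.5 Mb, did not differ beyond their counting error. The layer from 2.0 to 2.5 Mb, at 28.6 per Mb, drew many of its 100 windows from a few places. Among them were 18 on chromosome 5 from 11.7 to 11.8 Mb and 14 on chromosome 2 from 3.6 to 3.7 Mb. A further 7 lay on chromosome 3 from 14196943 to 14202649. The median width in this layer was 102.5 bp, against 202 and 207 bp from 1.0 to 2.0 Mb. Whether density stayed level without these places was not tested. The chromosomes differed in the fall. From the outer 1 Mb to the inner part, the density went from 51.5 to 19.7 per Mb on chromosome 1, from 56.5 to 29.4 on chromosome 3, from 39.5 to 27.3 on chromosome 4 and from 48.5 to 31.0 on chromosome 5. On chromosome 2 it was nearly flat, with 32.0 and 29.2. The fullest 0.5 Mb bin of its interval, with 23 windows, was the central one from 3.5 to 4.0 Mb. Of those 23, 14 lay from 3.6 to 3.7 Mb, and 12 of the 14 were under 100 bp wide. Outside the bounds the pooled density rose over about 2 Mb, from 73.8 per Mb (66.5 to 81.7) in the first 0.5 Mb to 109 (100 to 119) from 1.0 to 1.5 Mb and 139 (128 to 150) from 2.0 to 2.5 Mb. In the pooled counts the bounds therefore cut a continuous slope rather than a step. This slope shows in the plot of windows by distance from the bounds. Single bounds differed. The 0.5 Mb bins just outside and just inside held 47 and 17 windows at the lower bound of chromosome 1. They held 30 and 8 at the upper bound of chromosome 5, but 29 and 28 at the lower bound of chromosome 4. At the upper bound of chromosome 3 the order was reversed, with 27 outside and 39 inside.

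**Figure D2:**
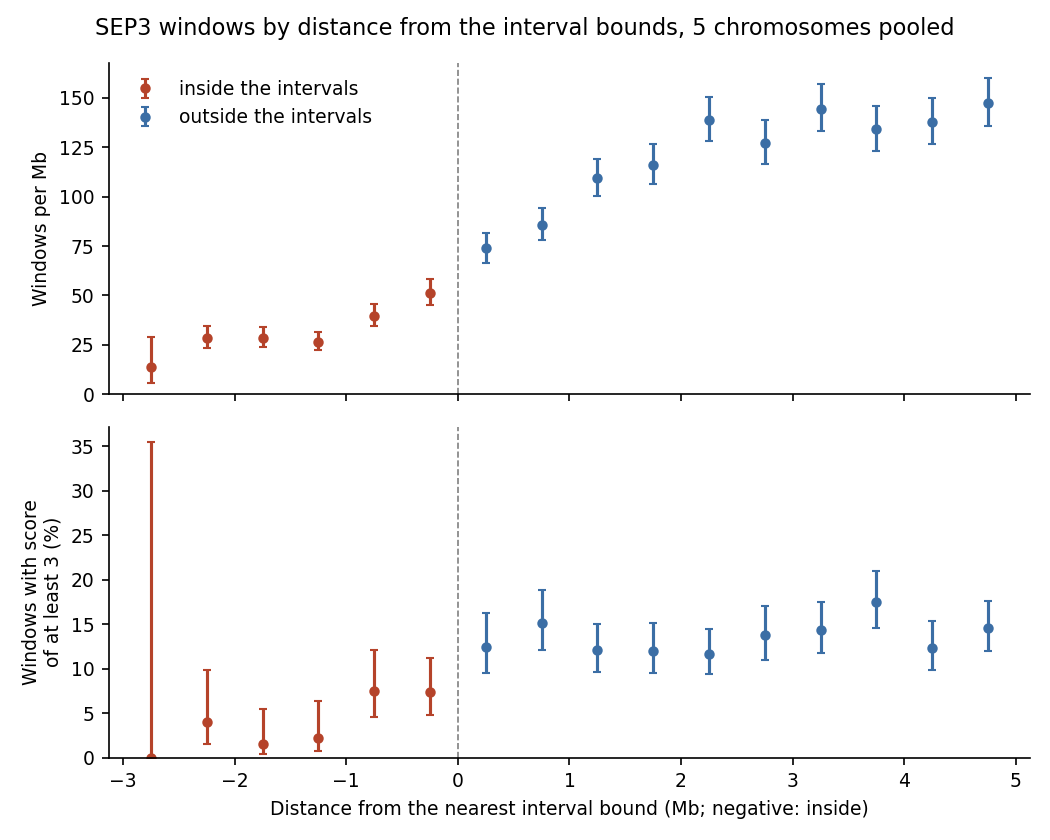
Windows per Mb (top) and the percentage of windows with a score of at least 3 (bottom) in layers 0.5 Mb deep, by distance from the nearest bound of the pericentromeric intervals in Mb (negative values inside), 5 chromosomes pooled; bars are 95% Poisson (top) and Wilson (bottom) intervals over windows. Density climbs from 26.6 per Mb at 1.0 to 1.5 Mb inside to 139 per Mb at 2.0 to 2.5 Mb outside. The share of strong windows is 7.39% in the first layer inside and 12.5% in the first layer outside, with overlapping bars. The innermost layer holds only 7 windows.

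Strong windows followed a sharper course than all windows. Of the 43 with a score of at least 3, 34 lay within 1 Mb of a bound, where they were 7.46% (5.38 to 10.2%) of 456 windows. The inner parts of the intervals held the other 9, which were 2.44% (1.29 to 4.57%) of 369 windows. Per Mb that was 3.40 (2.35 to 4.75) in the outer 1 Mb and 0.667 (0.305 to 1.27) farther in. On chromosomes 2 and 4 no strong window lay in the inner part, and chromosomes 1, 3 and 5 had 3 each. Just outside the bounds the share was 12.5% (9.48 to 16.2%) in the first 0.5 Mb and 15.2% (12.1 to 18.9%) in the next. In the outermost 0.5 Mb inside the bounds it was 7.39% (4.78 to 11.3%). That overlaps the first value outside, so a change at the bounds themselves was not resolved. From 1.0 to 2.5 Mb outside, successive layers of 0.5 Mb had shares of 12.1, 12.0 and 11.7%. The share just outside thus stood near that of the whole list, 13.9%, where window density was still well below that of the arms.

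Counted in bins of 0.5 Mb, the intervals held between 1 and 41 windows per bin, with a median of 16 over 47 bins. The 188 full bins on the rest held between 23 and 120, with a median of 75. The ranges meet. In the intervals 11 bins reached the lowest count of the rest, and 13 bins of the rest stood at or below 41. No bin of the rest fell below the pericentromeric median. Strong windows were missing from 27 of the 47 pericentromeric bins (57.4%) and from none of the 188 others, whose median was 10 strong windows per bin.

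The sparsest bin of all was on chromosome 1 from 14.5 to 15.0 Mb, with a single window. Beside it the bin from 14 to 14.5 Mb held 6 and that from 15.0 to 15.5 Mb held 7. The densest pericentromeric bin, with 41 windows, was the first of the chromosome 5 interval, and the second densest, with 39, was the last of the chromosome 3 interval. Outside the intervals 9 of the 13 sparse bins had their nearer edge less than 1 Mb from a bound. The sparsest of them, on chromosome 4 from 1.5 to 2.0 Mb, held 23 windows, 5 of which had a score of at least 3. On chromosome 2 the 2 bins from 6.0 to 7.0 Mb held 26 and 24 windows, with 1 strong window each.

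**Figure D3:**
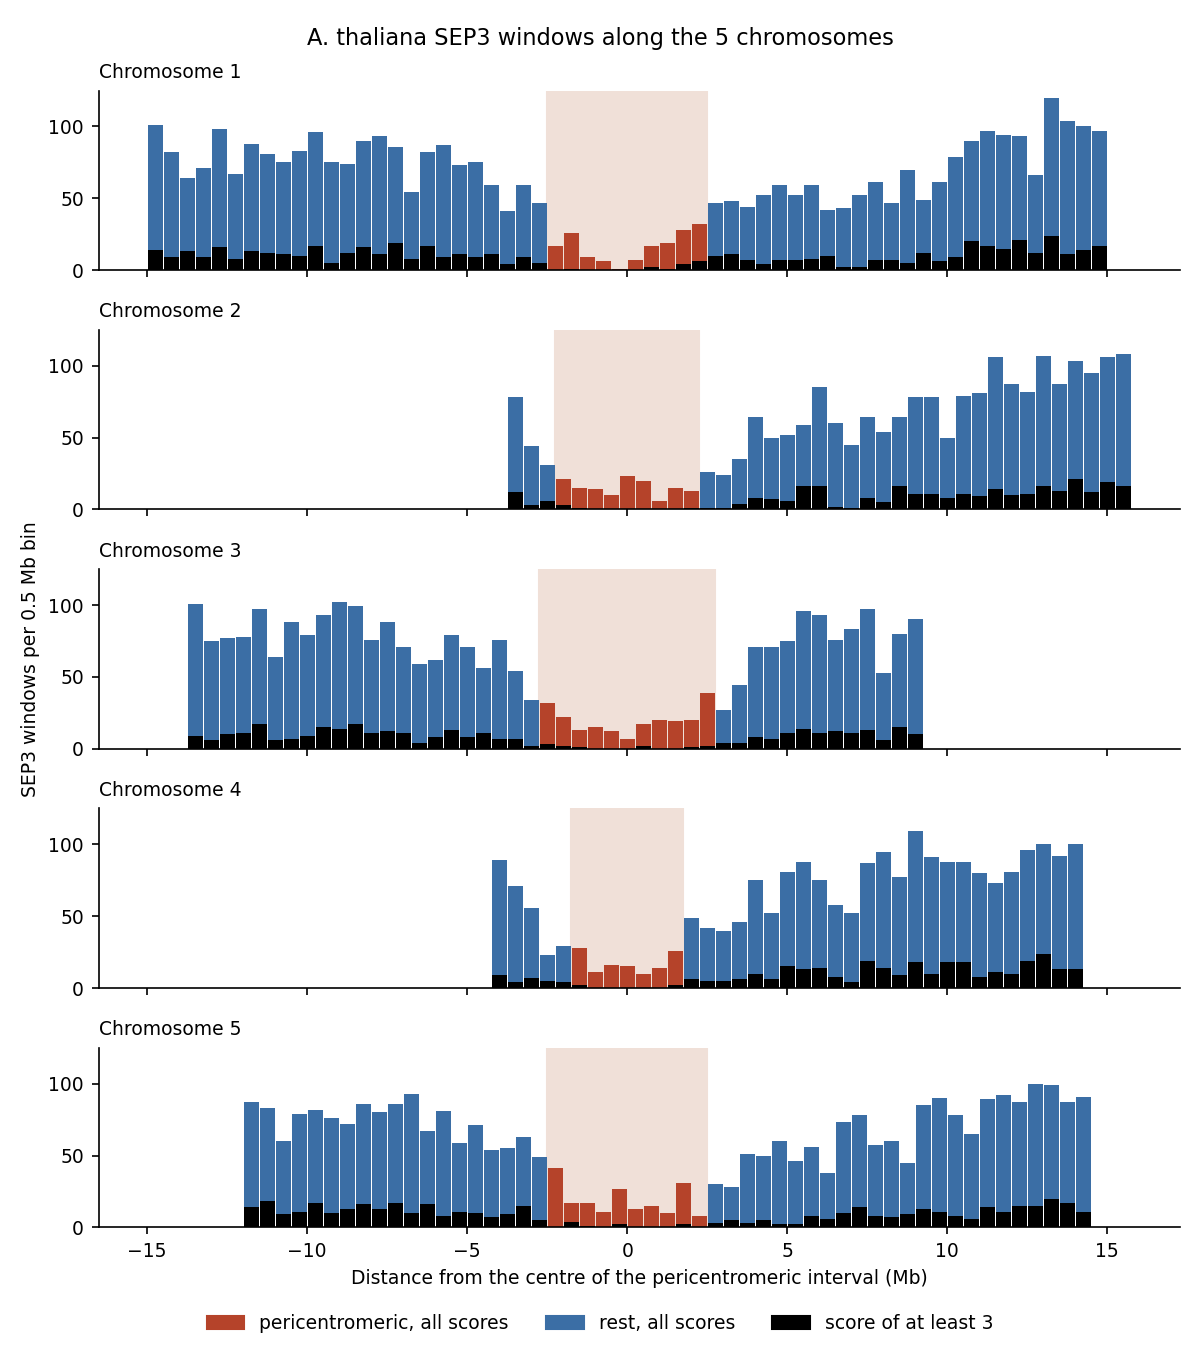
SEP3 windows per 0.5 Mb bin on each chromosome, by distance of the bin from the centre of the pericentromeric interval in Mb; red bars are bins in the interval (shaded), blue bars are bins on the rest, and black bars are the windows of each bin with a score of at least 3. Each chromosome shows a trough at the interval, from a median of 75 windows per bin on the rest to 16 inside, and black bars are missing from 27 of the 47 bins inside.

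Long stretches of the intervals held no window at all. The longest was on chromosome 1, where 500148 bp separated the summits at 14581806 and 15081954, and the next on that chromosome measured 274286 and 273597 bp. On chromosome 3 the longest distance was 307231 bp, from 13650968 to 13958199. The longest between summits of the same interval on chromosomes 2, 4 and 5 were 186499, 207552 and 215347 bp. On chromosome 5 a longer stretch, the last 265 kb before the upper bound, also held no summit. On the rest of the chromosomes the longest distance between summits of the same arm was 138362 bp, on chromosome 4 from 1638009 to 1776371. Stretches without a strong window were longer again, and reached 3.31 Mb on chromosome 2, from 2362110 to 5675915, and 2.97 Mb on chromosome 4, from 2663228 to 5634959. On chromosomes 1, 3 and 5 they reached 2.61, 1.79 and 1.88 Mb, against 0.780 Mb at most between strong windows of the same arm on the rest.

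The strongest pericentromeric window, chr1:17268223-17268780, had a score of 11.21 and a width of 558 bp. It ranked 173rd in the whole list and lay 232 kb inside the upper bound of the interval. Nearby, chr1:17296298-17296782 had a score of 7.63. The interval of chromosome 1 also held chr1:16836964-16837512, which scored 6.32, and chr1:15976805-15977713, which scored 5.94. The windows chr1:17015177-17015789 and chr1:17451337-17451811 scored 4.81 each. All 6 lay above the centre of the interval in coordinate, and 11 of the 14 strong windows of this interval lay within 1 Mb of a bound. A further pericentromeric window with a score of 4.81, on chromosome 5, was narrower and fell outside the 20 named by rank.

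Chromosome 5 held the window of second highest score, chr5:10356537-10357023, at 9.89. It also held chr5:13614116-13614558 (6.88), chr5:10798139-10798460 (6.69) and chr5:10451922-10452525 (5.38). The strongest pericentromeric windows of chromosome 4 were chr4:5634731-5635140, which scored 7.63, and chr4:2662951-2663549, which scored 5.38. Those of chromosome 2 were chr2:1594205-1594847, at 5.38, and chr2:1504862-1505347, at 5, whose summit lay 5.11 kb inside the lower bound. Of the 5 intervals, that of chromosome 2 thus had the weakest top window.

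On chromosome 3 chr3:11792560-11793069 scored 7.26, the highest of that interval. It was followed by chr3:16189208-16189761 (5.75), chr3:11394154-11394666 (5.56) and chr3:16420408-16420851 (5.19). The other 2 of the top 20, both at 6.5, were far narrower than the rest and are given with the narrow windows. Of these 20 windows, 16 lay within 1 Mb of a bound and 11 within 0.5 Mb. They ranked between 173rd and 932nd in the list, with widths from 123 to 909 bp and a median of 498.5 bp.

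**Figure D4:**
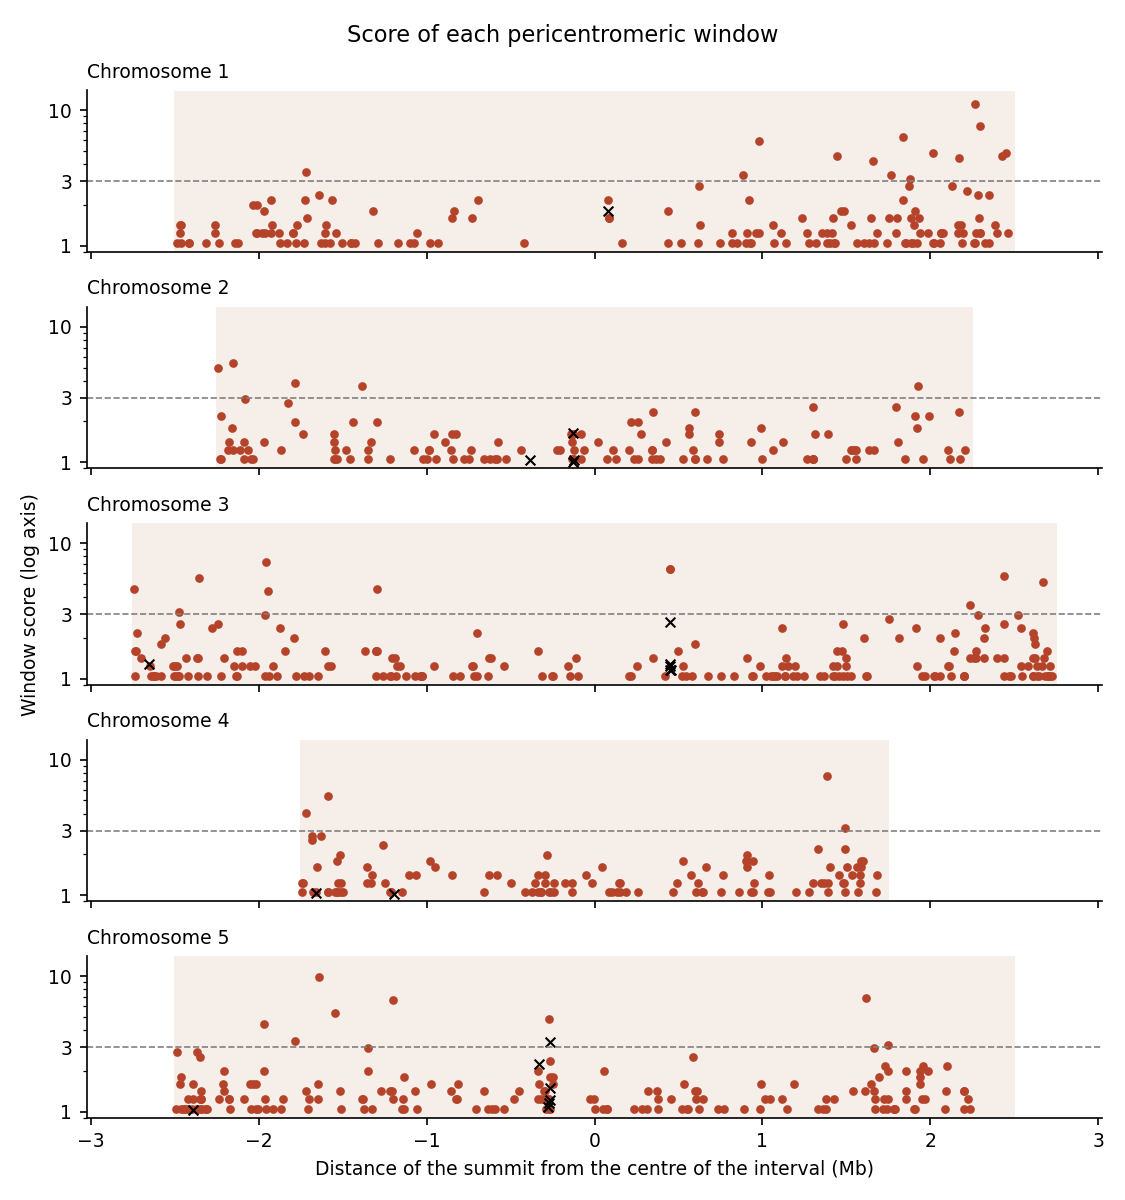
Score of each of the 825 pericentromeric windows on a log axis, by distance of its summit from the centre of its interval in Mb, with each interval shaded; the dashed line marks a score of 3 and black crosses mark the 20 windows whose score falls between the regular steps. Windows above the line crowd towards the bounds, with 34 of 43 within 1 Mb of one, and 13 of the 20 crosses gather at single places on chromosomes 2, 3 and 5.

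Pericentromeric windows were somewhat narrower than those on the rest, with a median width of 208 bp (quartiles 92 and 260) against 236 bp (131 and 336). The medians of the 5 intervals ran from 190.5 bp on chromosome 5 to 221 bp on chromosome 1, and those of the 5 rests from 232 to 241 bp. Windows under 100 bp made up 27.2% (24.2 to 30.3%) of the pericentromeric windows and 19.4% (18.7 to 20.04%) of the others. Windows over 400 bp made up 6.67% (5.16 to 8.58%) and 18.5% (17.9 to 19.2%).

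Since width rises with score in this list, the widths were also set side by side within score classes. From a score of 1.5 upwards the pericentromeric windows had the lower median in each class. The medians were 241.5 against 281 bp for scores from 1.5 to below 2, and 323 against 367 bp from 2 to below 3. They were 412 against 455 bp from 3 to below 5, and 487 against 552 bp from 5 to below 10. The 95% intervals of the medians overlap in the last 2 classes, with 25 and 17 pericentromeric windows, and are apart in the other 2. Below a score of 1.1 the order was the opposite, with 136 bp (115 to 151) against 110 bp (105 to 113), and from 1.1 to below 1.5 the medians of 202 and 205 bp did not differ beyond their intervals. The widest pericentromeric windows were chr3:11190833-11191789, with 957 bp and a score of 1.99, and chr1:15976805-15977713, with 909 bp. The next 3 were chr1:16658688-16659475 (788 bp), chr3:11787370-11788060 (691 bp) and chr3:11958600-11959285 (686 bp), with scores of 4.25, 2.93 and 1.99.

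**Figure D5:**
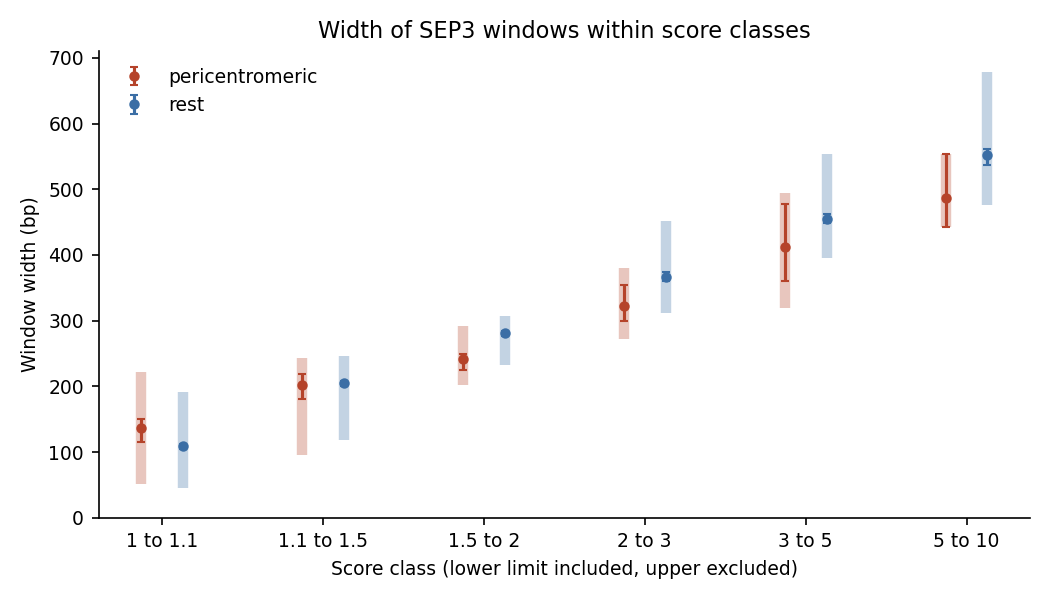
Width of SEP3 windows in bp by score class, for the pericentromeric intervals (red) and the rest (blue); points are medians, thin bars their 95% intervals from order statistics, and thick pale bars run from the lower to the upper quartile. Red medians are lower in the 4 classes from a score of 1.5 to 10 and higher in the lowest class, where they stand at 136 against 110 bp.

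A few strong pericentromeric windows were very narrow. Of the 43 with a score of at least 3, 3 (6.98%, 2.40 to 18.6%) were under 200 bp wide, while none of the 2000 on the rest was (upper Wilson limit 0.192%). These 3 were singled out after their values were seen. A pair of them lay side by side, chr3:14199692-14199814 and chr3:14199955-14200080, 123 and 126 bp wide and 140 bp apart, and each scored 6.5. On the rest, 95% of the 702 windows that scored from 5 to below 10 were at least 402 bp wide. The pair stood 2.30 Mb inside the interval, among 7 windows that spanned 5707 bp from 14196943 to 14202649, and 5 of these 7 had scores between the steps. The third was chr5:11732335-11732438, whose score of 3.24 also lay between the steps.

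Scores off the regular steps were more frequent in the intervals. A score was counted as off the steps if it lay more than 0.0075 from the nearest. That held for 20 of the 825 pericentromeric windows (2.42%, 1.57 to 3.71%) and for 57 of the 13882 others (0.411%, 0.317 to 0.532%), so the intervals held 26.0% of the off-step windows of the list. On chromosome 1 the shares were 1 of 162 and 17 of 3703, with overlapping Wilson intervals, and on chromosome 4 they were 2 of 120 and 8 of 2203, also overlapping. On chromosomes 2, 3 and 5 they were 4 of 137, 6 of 216 and 7 of 190, against 12 of 2111, 8 of 2726 and 12 of 3139, with intervals apart. The off-step windows in the intervals were narrow, with a median width of 26.5 bp against 272 bp for those on the rest. They lay mostly deep inside, with 16 in the inner parts and 4 in the outer 1 Mb. Of the 20, 13 came from 3 places, with 5 on chromosome 3 between 14196943 and 14202649, 5 on chromosome 5 between 11723443 and 11736302, and 3 on chromosome 2 between 3620646 and 3627562. Neighbouring windows are not independent, so the separation of the Wilson intervals on chromosomes 2, 3 and 5 rests mostly on 1 place each.

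The places on chromosomes 5 and 2 also stood out by the number of windows. In bins of 100 kb the intervals had a median of 3 windows, and 24 of 235 bins (10.2%) were empty. The densest bin, on chromosome 5 from 11.7 to 11.8 Mb, held 18 windows, of which 11 were under 100 bp wide, 2 had a score of at least 3 and 5 were off the steps. The third densest, on chromosome 2 from 3.6 to 3.7 Mb, held 14 windows, of which 12 were under 100 bp wide, with a median width of 45 bp and a highest score of 1.65. The second densest, at the edge of the chromosome 5 interval from 9.6 to 9.7 Mb, held 17, with a median width of 136 bp and 1 off the steps. The next densest, with 11 and 10 windows, were on chromosome 3 from 16.3 to 16.4 Mb and on chromosome 1 from 17.2 to 17.3 Mb, near interval bounds. The chromosome 1 bin contains the strongest pericentromeric window. Bins with 10 windows on chromosomes 3, 4 and 5 tied with it.

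Pericentromeric windows stood farther apart than those on the rest, as goes with their lower density. Whether the spacing of all windows differed beyond that was not tested. The nearest other summit was a median of 5956 bp away (quartiles 1503 and 16530), against 1772 bp (809 and 4149) on the rest. A neighbour within 1000 bp was found for 152 of the 825 windows (18.4%, 15.9 to 21.2%), against 31.2% (30.4 to 32.0%), and within 10000 bp for 62.8% (59.4 to 66.0%), against 94.1% (93.7 to 94.5%). The share within 1000 bp thus differed by less than the 4.14-fold difference in density. When summits within 1000 bp of each other were joined, the 825 windows formed 745 sites, 673 of them of a single window (90.3%), and none had more than 3 windows. On the rest 83.5% of 11441 sites had a single window and the largest had 7.

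The strong pericentromeric windows were far from each other, as goes with their 11.4-fold lower density. Whether their spacing differed beyond that was not tested. From one with a score of at least 3 to the nearest such window the median distance was 99390 bp (quartiles 39115 and 139645), against 12174.5 bp (3839 and 30022) on the rest. Only 4 of the 43 (9.30%, 3.68 to 21.6%) had another strong window within 10000 bp, against 46.7% (44.5 to 48.9%). In contrast, a window of any score within 1000 bp accompanied 10 of the 43 (23.3%, 13.2 to 37.7%) and 603 of the 2000 on the rest (30.2%, 28.2 to 32.2%), a difference that was not resolved at this number of windows.

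At the bounds themselves, the 10 outermost pericentromeric windows had scores from 1.05 to 5 with a median of 1.24, and widths from 35 to 486 bp. They lay 5.11 to 265 kb inside, the farthest being at the upper bound of chromosome 5. The 10 nearest windows outside had scores from 1.05 to 8.20 with a median of 2.175 and lay 1.02 to 47.4 kb beyond. Gene content, repeats, read mappability and input coverage along the chromosomes were not analysed here, and whether any of them moves with the counts was not tested.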

How the data were processed

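The A. thaliana window list was deposited by the authors as a re-analysis of earlier SEP3 ChIP-seq samples, per the series' design text, on TAIR10, per the name of the file. The deposited score is a value of the authors' own for each window, and the width in bp is their deposited length. The aligner, peak caller and control were not given in the sources used here, nor was the read depth. Scores begin at 1.01, so weaker windows are not seen. The 2 A. lyrata lists were not used.

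The interval bounds, measures and lists were chosen with earlier results of these data known. Windows were assigned by summit, and a chromosome was taken to end with its last window. Densities have exact Poisson intervals, shares Wilson intervals, ratios of densities exact conditional intervals and medians order-statistic intervals, at 95% and for counting error only. Neighbouring windows are not independent, so these intervals do not measure biological variation. With 1 list and no replicates, no test was run. By rule, the text names the 20 windows of highest score (ties by width), the 5 widest, those nearest the bounds, as a summary, and the 5 densest bins of 100 kb. Narrow strong windows and off-step scores were singled out after their values were seen. Score steps came from a line through the frequent scores. Python 3.11.15, pandas 2.3.3, NumPy 2.4.6 and SciPy 1.17.1 were used. The density ratio and the differences in share and median width were tested on simulated, independent windows. The other calculations were not tested in this way.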

Additional observations from a re-analysis of the deposited data

How the results depend on the processing

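The density, the share of scores of at least 3, the median score and the median width were recomputed under 13 or 14 settings each. Of the 53 values, 39 lay inside the main 95% interval and 14 outside it. For the median score that interval was the single value -0.18, so the 11 values counted inside it were ties. Placing windows by their centre left every value unchanged. None reversed, with a difference of 0 counted as not reversed. The rest stayed 4.04 to 4.25 times denser without any 1 chromosome. The ratio of densities moved from 4.14 to 3.56 with the intervals widened by 0.5 Mb on each side, to 4.58 with them narrowed, to 3.77 with summits within 1000 bp joined and to 3.05 with the rest limited to 3 Mb on each side. It was 8.53 without scores under 2 and 11.4 without scores under 3. The difference in the share of strong windows, pericentromeric minus rest, moved from -9.20 percentage points to -7.01 with widened intervals and to -11.2 with joined summits. It was -13.3, -5.66 and -4.40 points for score limits of 2, 4 and 5. The difference in median score, -0.18, became -0.57 without scores under 2, and 0 without scores under 3, where both medians were 4.62. The difference in median width, -28 bp, became -85 bp without scores under 2 and -36 bp without scores under 3. Fewer windows enter under the score limits, and the bounds cut a slope in the pooled density. The cause of any of these changes was not tested. No paired analysis was possible because the list gives no values per sample and carries no replicate numbers. Read depth is unknown, so windows that a deeper library would add cannot be counted.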
